A study of Mus musculus with 12 samples.

Results

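The solute carrier genes encode the membrane transporters whose mouse symbols begin with Slc, and 53 of the 130 that could be named on the array were bright enough in the mouse gastric antrum to be described. The array held 8703 named genes in all, of which 3290 were as bright. A solute carrier was taken when its symbol followed the Slc pattern and its probe gave a non-normalized intensity above 200 on at least 3 of the 12 arrays, while Slc26a9 was left out by the same rule. The choice therefore rests on signal. Each of the 53 genes had exactly 1 probe past that limit. Of the 53, 3 genes (Slc4a8, Slc38a11 and Slc25a27) passed it only through the arrays of day 90 and had to be brighter there. Slc5a1, Slc26a3 and Slc52a2 passed it only on control mouse 3 and on mice 2 and 3 of day 90. At the edge of the limit, the third highest intensity was 205.6 for Slc39a3 and 213.6 for Slc52a2, both inside, and 199.4 for Slc5a9 and 198.2 for Slc66a1, both outside.

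Total RNA of the antrum was hybridised to Illumina Sentrix Mouse-6 bead arrays, 1 array for each of 12 mice on the C57Bl/6 background, in 4 groups of 3. The 3 transgenic groups were CEA424-SV40 TAg mice aged 30, 60 and 90 days. They carry SV40 large T antigen behind a human CEA minimal promoter and were bred as hemizygotes. The antrum of these mice was labelled as tumour together with normal tissue, and lesions could be seen by eye by 60 days. The controls were non-transgenic, wild type mice with normal antrum, labelled as 2-6 months old. The study's text gives the non-transgenic mice the age of the oldest transgenic group in one place and calls them littermates in another. The label's range includes that age but is wider, so their exact age is not settled. Against day 30 and day 60, age and transgene cannot be told apart, and day 90 is matched for age only if the age in the text holds for all controls. Mice were separate animals, and in bulk tissue fewer cells of a type and less RNA per cell cannot be told apart.

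Solute carriers move ions, sugars, amino acids, nucleotides, vitamins and metals across membranes, either down a gradient or coupled to sodium, protons or a second substrate. In the acid-secreting stomach, basolateral anion exchange by Slc4a2 returns bicarbonate to the blood while the pump H,K-ATPase (Atp4a) secretes acid, and sodium-proton exchangers of the Slc9 family regulate cell pH and volume. The Slc25 family serves the inner membrane of mitochondria, the Slc35 family supplies nucleotide sugars to the Golgi, and the Slc18 family fills secretory vesicles of neurons and endocrine cells.

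Several arrays stood apart before any comparison. In control mouse 3, the summed signal of 9 small intestinal genes, chosen after their values were seen from a list of 10 of which 9 were tested (among them Muc13, Cdhr5 and Lyz1), was 18200, compared with 1898 and 1145 in the other controls, 1073 to 1256 at day 30, 1242 to 1802 at day 60 and 1762 to 3332 at day 90. Atp4a was at 3931 in this mouse and at 3527 in day 30 mouse 2, while the other arrays of control, day 30 and day 60 lay between 10150 and 17330. The pancreatic acinar markers Prss1 and Cel summed to 18920 in control mouse 1, 10200 in day 60 mouse 3, and 3694 and 10900 in day 90 mice 2 and 3, against 158.1 to 429.9 in the other arrays. Their part in the results was not tested, and values without control mouse 3 are given where they change a call. Of the neuroendocrine markers only Scg2 was tested, and it rose at day 90 by 6.29 ± 0.15 (SE) on the log2 scale (limma, adjusted p = 1.82e-07). Neither gastrin nor a marker of gastric mucous cells was tested, so the label of antrum was not checked against a defining marker. Atp4a and Kcnq1 mark parietal cells, which are most common in the gastric corpus, and both fell at day 90. Of the other marker lists at day 90, smooth muscle (3 of 3 tested), squamous forestomach (2 of 2), red blood cells (1 of 2) and duodenal enterocytes (Apoa1, 1 of 2) had lower genes, neurons and glia had 1 of 3 higher (Elavl4), and leukocytes, endothelium, adipocytes and acinar cells had none past the threshold. Apoa1 did not follow the 9 intestinal genes, being lowest of the controls in mouse 3 (5654, against 8496 and 14940). Apoa4 was highest there (1499, against 650.7 and 615.2). The part of intestinal content in the fall of Apoa1 was not tested.

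**Figure D1:**
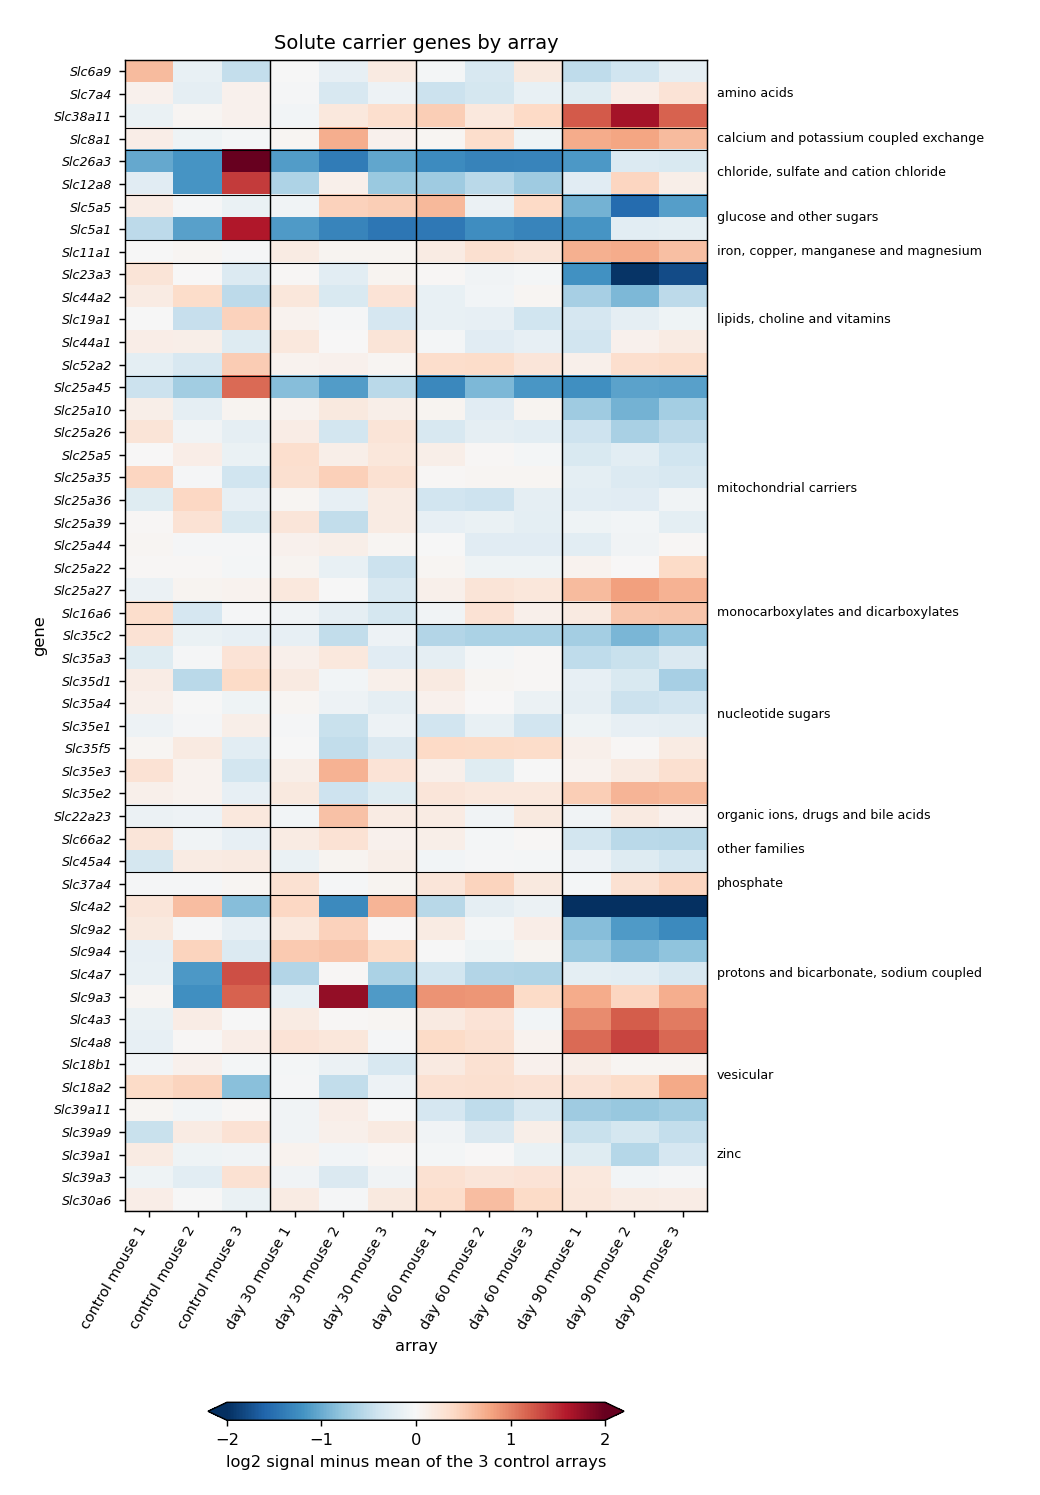
Signal of 51 of the 53 solute carrier genes (rows, grouped by substrate) on the 12 arrays (columns), as log2 signal minus the mean of the 3 control arrays. The day 90 arrays share the blue of Slc4a2 and Slc23a3 and the red of Slc4a8 and Slc38a11, and control mouse 3 stands out in Slc26a3, Slc5a1, Slc12a8, Slc4a7 and Slc25a45.

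At day 90, 17 of the 53 genes passed the threshold against control (limma, Benjamini-Hochberg adjusted p under 0.05 over 22067 probes), of which 7 rose and 10 fell. The 3 genes that passed the signal rule only through day 90 are among the 7, and without them 14 of 50 passed, 4 higher and 10 lower. Among all probes 19.5% passed, 10.4% higher and 9.17% lower. The 53 genes were chosen for brightness, and of the 10485 probes past the same intensity limit 33.4% passed, against 32.1% of the solute carriers, so their share was near that of equally bright probes. Before adjustment 25 genes had a p under 0.05, with 32.4% of all probes. The median log2 fold change was -0.17 over the 53 genes and -0.04 over all probes. The largest changes were falls of Slc4a2, Slc23a3 and Slc5a5 and rises of Slc38a11, Slc4a8 and Slc4a3, and 8 genes differed by more than 2-fold, where 6.64% of all probes did. This share and the 32.4% before adjustment include dim probes, and those of equally bright probes are not given, so no excess can be read. Of the 8, Slc38a11 and Slc4a8 had to be brighter at day 90, and Slc25a45 (-1.13, limma adjusted p = 0.0814) did not pass. The signals of the 53 probes summed to 31360 to 32540 on the day 90 arrays and to 40270 to 41370 on the control arrays. Bright probes weigh most in such a sum, among them Slc4a2 (mean 3460 in control, 695 at day 90) and Slc25a5 (9081 and 7341), which did not pass.

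**Figure D2:**
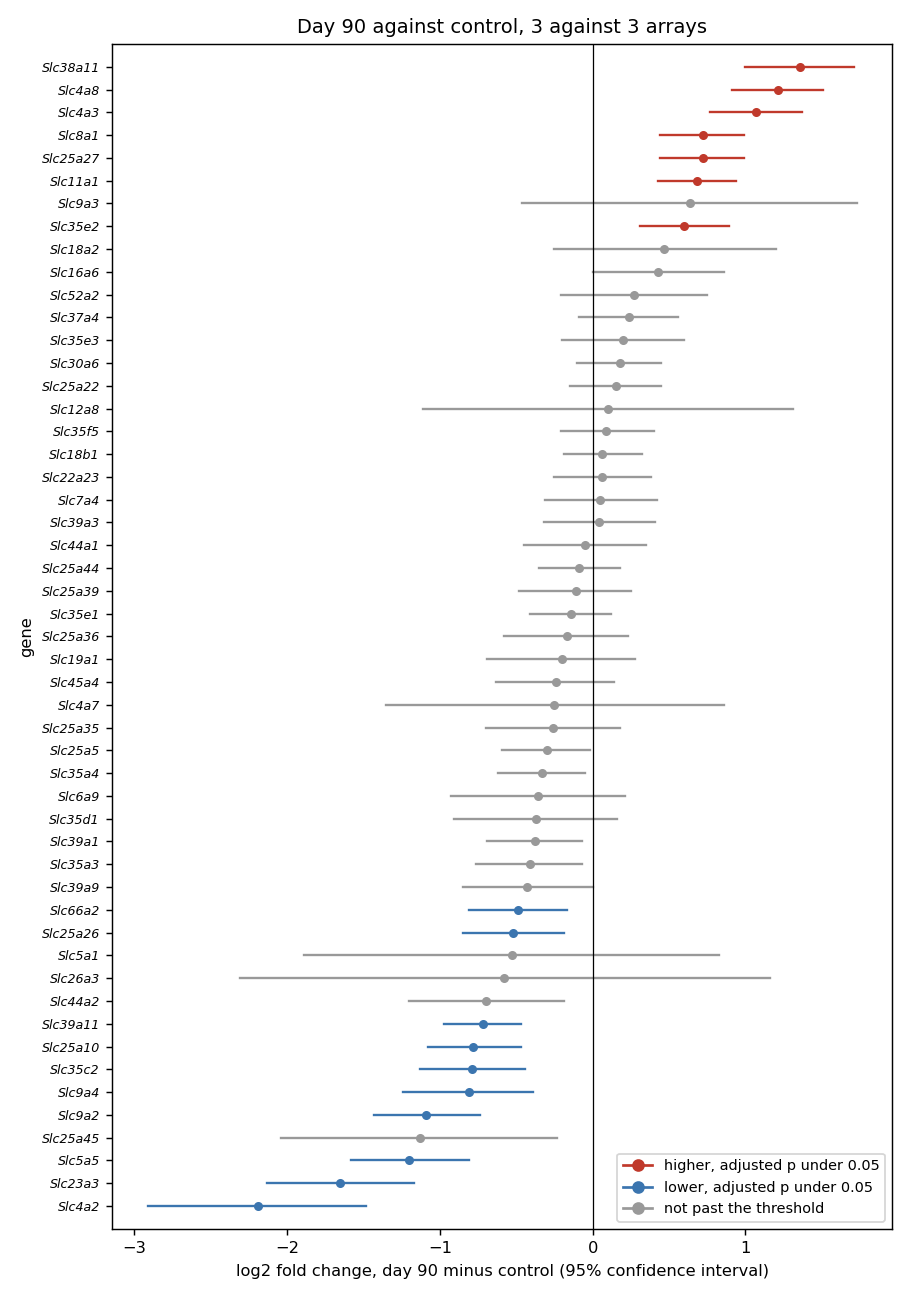
Log2 fold change of each of 51 of the 53 genes at day 90 minus control, as a point with its 95% confidence interval, coloured by whether the adjusted p of limma was under 0.05. Slc4a2 lies lowest at -2.19 and Slc38a11 highest at 1.36, and the widest intervals belong to genes with a stray control array, such as Slc26a3 and Slc5a1. The point of Slc4a8, whose control arrays were not above background, is the fitted value.

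The exchangers of bicarbonate and protons moved in both directions, with 2 of 7 higher and 3 lower. Slc4a8, 1 of the 2, had to be brighter at day 90. Of equally bright probes 33.4% passed, and of all probes 10.4% were higher and 9.17% lower. The groups here and below are small, so their counts do not set a group apart from these shares. Slc4a2, the anion exchanger AE2 of parietal cells, gave normalized signals of 3774, 4851 and 1756 in control, 4252, 1309 and 5083 at day 30, 2173, 2793 and 2940 at day 60 and 704.8, 661.3 and 718.9 at day 90. The 3 arrays of day 90 lay below all others, and the decrease from control was 4.58-fold (log2 -2.19 ± 0.32, limma adjusted p = 0.00178). Without control mouse 3 it was -2.62 (limma adjusted p = 7.87e-06). The lowest arrays outside day 90, control mouse 3 and day 30 mouse 2, were the same 2 that were low in Atp4a. In the controls, at day 30 and at day 60 the order of the mice was the same for Slc4a2 and Atp4a, which measured 11470, 17190 and 3931 in control and 792.4, 431 and 637.4 at day 90. Atp4a fell 15.3-fold at day 90 (limma adjusted p = 0.000666), and the part of a smaller share of parietal cells in the fall of Slc4a2 was not tested.

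**Figure D3:**
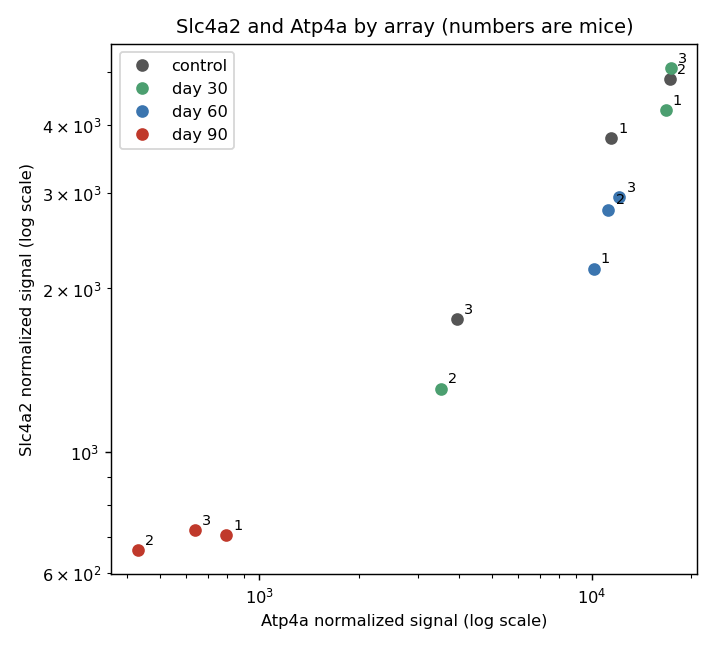
Slc4a2 against Atp4a, normalized signal of each array on log axes, numbered by mouse within each group. Day 90 arrays lie at the lower left, and control mouse 3 (Atp4a 3931, Slc4a2 1756) and day 30 mouse 2 (3527, 1309) lie between them and the rest.

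Among the sodium-proton exchangers, Slc9a2 (NHE2), an apical exchanger of gastrointestinal epithelium, measured 852.5, 728.8 and 659.6 in control, 860.1, 1027 and 748.3 at day 30, 835.7, 724.8 and 815.4 at day 60 and 411.3, 337.9 and 308.4 at day 90. No array of day 90 reached the others, and the fall was -1.09 ± 0.15 (limma adjusted p = 0.00164). A second, dimmer probe of Slc9a2 also fell, by 0.55 on the log2 scale (limma adjusted p = 0.0207). Slc9a4 (NHE4), a basolateral exchanger of parietal cells, was at 169.5, 258.9 and 157.8 in control, between 248.4 and 280.9 at day 30, between 179.4 and 198.8 at day 60 and at 114.5, 101.7 and 109.7 at day 90. Its fall was -0.81 ± 0.19 (limma adjusted p = 0.0161), and the call was lost without day 90 mouse 2 (-0.77, limma adjusted p = 0.0807) or mouse 3 (-0.82, limma adjusted p = 0.0519). Slc9a3 (NHE3), the absorptive exchanger of intestine and kidney, varied widely, with 299.8, 124.8 and 664.3 in control and 263.7, 983.8 and 132.4 at day 30, and its difference at day 90 was 0.64 ± 0.48 (limma adjusted p = 0.411). Without control mouse 3 it was 1.23 and passed (limma adjusted p = 0.0194).

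Slc4a8, a sodium-driven chloride-bicarbonate exchanger known from neurons, gave 80.39, 91.69 and 99.32 in control, 109.2, 105.6 and 88.85 at day 30, 117, 112.5 and 94.75 at day 60 and 197.7, 230.9 and 200.2 at day 90. The control arrays were all at or below 100, the limit of background used, so the rise is given as at least 2.09-fold (limma adjusted p = 0.000393). Slc4a3 (AE3), the anion exchanger of heart and brain, measured 134.8, 164.5 and 147 in control and 286.9, 343.4 and 304.5 at day 90, with day 30 and day 60 between 142.8 and 179.3. It rose by 1.07 ± 0.13 (limma adjusted p = 0.000775), whereas a second probe near background (mean signal 107) gave 0.02 (limma adjusted p = 0.957). Of the 53 genes, Slc4a3 had the profile most like Slc4a8 over the 12 arrays (Pearson r of log2 signal 0.98), and both are highest at day 90, which the signal rule required of Slc4a8. Slc4a7, a sodium-bicarbonate cotransporter, was at 344.2, 170.8 and 931 in control and 302.8 to 331.9 at day 90 and did not pass (-0.25 ± 0.49, limma adjusted p = 0.775).

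**Figure D4:**
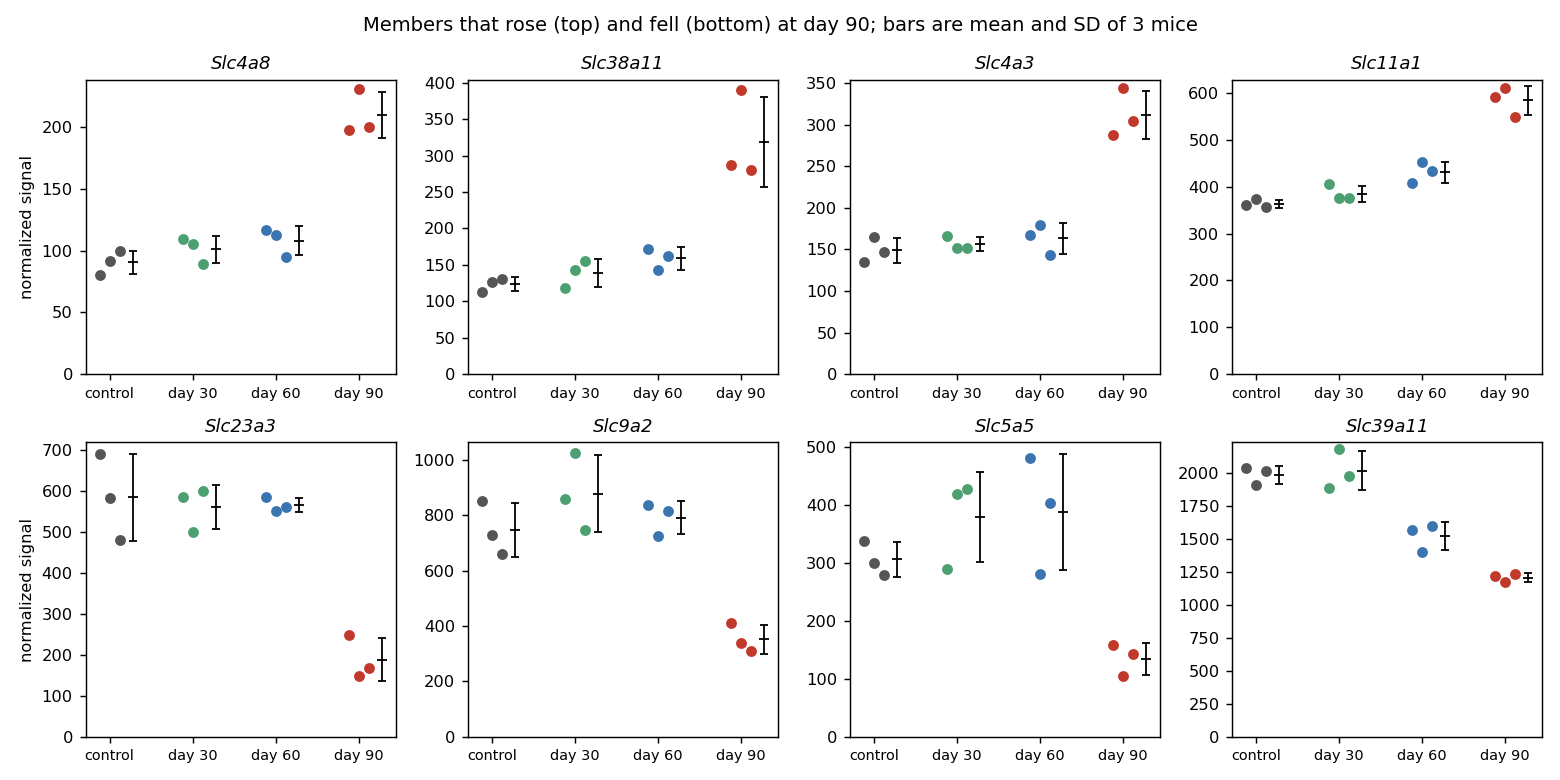
Normalized signal of 4 genes that rose and 4 that fell at day 90, one point for each mouse with the mean and SD of 3 mice beside them. In each of the 8 panels the day 90 points lie apart from the control points, and among the 4 that fell only Slc39a11 has all its day 60 points (1399 to 1596) below control.

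Slc38a11, a member of the sodium-coupled amino acid transporters, measured 112.1, 127 and 130.6 in control, 118, 142.4 and 155.4 at day 30, 172.3, 142.4 and 161.5 at day 60 and 287.3, 390.2 and 279.6 at day 90. Day 60 already lay above every control, without passing the test (0.36 ± 0.12, limma adjusted p = 0.219), and the rise at day 90 was 2.56-fold (1.36 ± 0.16, limma adjusted p = 0.000532). Slc6a9 (GlyT1), the glycine transporter, was at 1516, 883.5 and 707.9 in control and 694.3 to 866 at day 90, with the highest value in control mouse 1, and Slc7a4, an orphan relative of the cationic amino acid transporters, overlapped between the groups. Neither passed (-0.36 and 0.05, limma adjusted p = 0.371 and 0.86). Slc38a11 and Slc4a8 both entered through day 90 alone and so had to be brighter there. As the genes with the highest fold changes, they are shown with the 300 bases around their RefSeq start sites (GRCm38.p6, 250 before and 50 after), with the motif letters found in capitals.
Slc4a8 (chr15:100761497-100761796, plus strand): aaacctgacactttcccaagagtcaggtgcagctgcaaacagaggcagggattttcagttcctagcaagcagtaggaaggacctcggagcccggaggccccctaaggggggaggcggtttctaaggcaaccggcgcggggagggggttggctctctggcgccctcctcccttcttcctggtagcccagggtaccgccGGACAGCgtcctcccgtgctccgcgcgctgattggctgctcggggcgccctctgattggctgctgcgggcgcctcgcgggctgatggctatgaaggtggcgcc
Slc38a11 (chr2:65363977-65364276, minus strand): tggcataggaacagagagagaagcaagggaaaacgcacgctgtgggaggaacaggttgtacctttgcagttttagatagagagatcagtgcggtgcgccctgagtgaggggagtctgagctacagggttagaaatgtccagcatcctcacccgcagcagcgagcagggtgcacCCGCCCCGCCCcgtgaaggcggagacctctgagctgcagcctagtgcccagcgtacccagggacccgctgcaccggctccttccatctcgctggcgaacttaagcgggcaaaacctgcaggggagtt
On either strand, the letters GGACAGC, a part of the REST motif, were found in Slc4a8 at -53 from the start and in 6.6% of all 32851 promoters of the table. The letters GGGCGG of the GC box occurred 2 times on the reverse strand of Slc38a11, at -77 and -72 and overlapping by 1 base, and in 35.7% of all promoters. A match of letters is a description and does not show binding. Promoters were matched for 38 of the 53 genes, and of their 53 start sites 64.2% held the GC box, 13.2% GGACAGC, 7.55% TATAAA, 7.55% GTTAAT and 5.66% TTTATG.

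Slc8a1 (NCX1), the sodium-calcium exchanger of muscle and nerve, was at 258.6, 222.5 and 231.1 in control and 396.1, 407.5 and 365.6 at day 90, and day 30 mouse 2 reached 390.2. It rose by 0.72 ± 0.12 (limma adjusted p = 0.0038), while 3 of 3 smooth muscle markers fell. Slc11a1 (NRAMP1), a divalent metal transporter of macrophage phagosomes, gave 360, 372.6 and 356.8 in control, 404.9, 375.2 and 375.2 at day 30, 408.1, 452.6 and 432.4 at day 60 and 591.9, 610.4 and 549.6 at day 90. The increase was 0.68 ± 0.11 (limma adjusted p = 0.00345). The leukocyte markers tested, Lyz2 (-0.10) and Cd68 (0.17), did not pass, and the 2 dimmer probes of Slc11a1 gave -0.47 (limma adjusted p = 0.0827) and -0.14 (limma adjusted p = 0.611), so the probes of this gene disagreed.

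Slc5a5, the sodium-iodide symporter of thyroid and gastric mucosa, which shares a family number with the glucose carriers, fell from 337.4, 300.3 and 278.9 in control to 157.9, 104.4 and 142.2 at day 90. Day 30 (289.6 to 427.3) and day 60 (280.8 to 479.6) reached as high as control or higher, and the fall was 2.29-fold (-1.20 ± 0.17, limma adjusted p = 0.00166). Slc23a3, an orphan relative of the vitamin C transporters, measured 691.5, 583 and 480.2 in control, 585.2, 499.4 and 599.5 at day 30, 586.7, 552.7 and 561.5 at day 60 and 249.6, 149 and 167.9 at day 90. Day 30 and day 60 lay within the range of the controls, and day 90 was 3.14-fold below control (-1.65 ± 0.21, limma adjusted p = 0.000944). The choline transporter-like gene Slc44a2 was at 1232, 1416 and 763.7 in control and 691.6, 592.1 and 766.7 at day 90, overlapping through control mouse 3 (-0.70 ± 0.22, limma adjusted p = 0.0595). A second probe of Slc44a2 near background (mean signal 107.6) gave -0.19 with all controls (limma adjusted p = 0.381). Without control mouse 3 the brighter probe passed (-0.96, limma adjusted p = 0.00238). The riboflavin transporter Slc52a2 gave 0.27 (limma adjusted p = 0.431) and also passed without control mouse 3 (0.52, limma adjusted p = 0.0285). Apart from control mouse 3, the probe of Slc52a2 passed the intensity limit only on 2 arrays of day 90. Without that mouse the signal rule therefore favoured its rise. Slc19a1, the reduced folate carrier (-0.20), and the choline transporter Slc44a1 (-0.05) did not pass.

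Of 11 mitochondrial carriers, 1 rose and 2 fell, where 33.4% of equally bright probes passed. Slc25a10, the dicarboxylate carrier, was at 581.5, 474.6 and 554 in control and 326.3, 278.5 and 334.5 at day 90, a fall of 0.78 ± 0.13 on the log2 scale with no overlap (limma adjusted p = 0.00443). Slc25a26, which imports S-adenosylmethionine, fell from 300.9, 241.3 and 223.1 to 190.7, 162 and 176.4 (-0.52 ± 0.15, limma adjusted p = 0.035). That call was lost without control mouse 1 (-0.40), control mouse 2 (-0.56), day 90 mouse 2 (-0.46) or day 90 mouse 3 (-0.53), with limma adjusted p from 0.0636 to 0.124. Slc25a27 (UCP4), a carrier best known from brain, rose from 113.2, 127.3 and 129.2 to 191, 216.5 and 199.3 (0.72 ± 0.12, limma adjusted p = 0.00385), and is one of the genes that entered through day 90 alone. Slc25a5, the ADP/ATP carrier ANT2, gave 9113, 9888 and 8242 in control and 7344, 7821 and 6856 at day 90, which did not overlap but missed the threshold (-0.30 ± 0.12, limma adjusted p = 0.126). Slc25a39, which supplies mitochondrial glutathione, was at 3058 to 4634 in control and 3305 to 3656 at day 90 and did not pass (-0.11 ± 0.16, limma adjusted p = 0.686). Slc25a22 (glutamate), Slc25a35, Slc25a36 and Slc25a44, overlapped with control and lay between -0.26 and 0.15. Outer membrane and pyruvate carriers listed as partners went both ways, with Vdac1 and Mpc2 lower and Vdac3 higher among 4 tested.

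The nucleotide sugar group had 1 gene higher and 1 lower of 8, where 33.4% of equally bright probes passed. Slc35c2, a Golgi protein linked to fucose supply, gave 544.3, 407.7 and 397.5 in control, 396.3, 317.9 and 415.9 at day 30, 297.7, 288.4 and 287.7 at day 60 and 277, 237.4 and 260.4 at day 90. Day 60 and day 90 lay below every control, and the fall at day 90 was -0.79 ± 0.15 (limma adjusted p = 0.00712). Slc35e2, an orphan of the family, rose from 303.8, 296.6 and 252.3 to 397.8, 451.9 and 443.4 (0.60 ± 0.13, limma adjusted p = 0.0111), a call lost without day 90 mouse 3 (0.58, limma adjusted p = 0.0539). The UDP-N-acetylglucosamine transporter Slc35a3 (-0.41, limma adjusted p = 0.0955) and Slc35a4 (-0.33, limma adjusted p = 0.1) were lower in every array at day 90 without passing. Slc35d1, Slc35e1, Slc35e3 and Slc35f5 overlapped with control and lay between -0.37 and 0.20.

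In the zinc group, Slc39a11 (ZIP11) measured 2037, 1910 and 2018 in control, 1891, 2183 and 1982 at day 30, 1572, 1399 and 1596 at day 60 and 1218, 1172 and 1234 at day 90. The groups of day 60 and day 90 overlapped with neither control nor each other, and the fall at day 90 was -0.72 ± 0.11 (limma adjusted p = 0.00251). Slc39a1 (ZIP1) was lower in every array at day 90 (-0.38, limma adjusted p = 0.0851) and Slc39a9 gave -0.43 (limma adjusted p = 0.153), neither past the threshold, nor were Slc30a6 (0.18) and Slc39a3 (0.04). Slc66a2, a PQ-loop protein, fell from 2844, 2297 and 2141 to 1860, 1659 and 1647 (-0.49 ± 0.14, limma adjusted p = 0.041), and Slc45a4 did not pass (-0.24). Slc66a2 lost the call without control mouse 1 (-0.37), control mouse 2 (-0.52) or day 90 mouse 1 (-0.54), 2 (-0.46) or 3 (-0.46), with limma adjusted p from 0.0553 to 0.142. In the vesicular pair, Slc18a2 (VMAT2), which loads monoamines into vesicles, was at 335.4, 350.2 and 142.7 in control and 312.6, 330.9 and 434.9 at day 90 and did not pass (0.47 ± 0.32, limma adjusted p = 0.348), nor did the polyamine transporter Slc18b1 (0.06). Slc16a6 (0.43, limma adjusted p = 0.155), the glucose-6-phosphate carrier Slc37a4 (0.24, limma adjusted p = 0.298) and Slc22a23 (0.06, limma adjusted p = 0.798), the last at 1513, 1524 and 1887 in control, did not pass either.

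Pumps, channels and chaperones that serve these carriers were counted from a list of 60 genes, of which few were tested. Among all probes 10.4% were higher and 9.17% lower at day 90, and so few genes do not set a list apart. Of 4 epithelial channels, 3 fell at day 90. Clic6 fell by 3.10 on the log2 scale, the parietal cell potassium channel subunit Kcnq1 fell by 1.52, and the water channel Aqp4 fell by 1.04. Of 5 chaperones and scaffolds, Ezr (ezrin) and Slc9a3r1, a scaffold of NHE3, each fell by 1.43 and Emb, a partner of monocarboxylate transporters, rose by 2.57. Of 7 subunits of the vesicular proton pump, Atp6v0a1 rose (0.72, limma adjusted p = 0.00982). In the sodium pump group Fxyd3 fell by 0.81 and Atp1b1 did not pass, and neither of 2 Slco genes passed. Among the 77 solute carriers below the intensity limit, 34 were tested, of which Slc25a25 (0.71) and the fructose transporter Slc2a5 (0.73) rose and the fatty acid transporter Slc27a2 (-0.76) fell.

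Control mouse 3 stood out in 5 genes, picked after their values were seen. Slc5a1 (SGLT1), the sodium-glucose cotransporter of the small intestinal brush border, gave 190.7, 128.8 and 831.7 in control, 124.5, 110 and 99.91 at day 30, 101.7, 115.3 and 109.5 at day 60 and 121.1, 235.7 and 239 at day 90. Slc26a3 (DRA), the intestinal chloride-bicarbonate exchanger, gave 110.4, 98.93 and 1020 in control, 84.92 to 109.2 at day 30, 88.42 to 93.55 at day 60 and 101.2, 184 and 180.8 at day 90. Both were highest in control mouse 3 and next highest in mice 2 and 3 of day 90, and the summed intestinal genes were at 18200, 3332 and 3122 in the same 3 mice. Both genes passed the intensity limit on these 3 arrays alone. The signal rule therefore picked them for being bright there, which also enters their correlation. Slc12a8, a relative of the cation-chloride cotransporters, was at 966.8, 498.7 and 2993 in control, and Slc25a45, an orphan mitochondrial carrier, at 483, 403 and 1432. Profiles most like Slc5a1 over the 12 arrays were those of Slc26a3 (r = 0.97), Slc12a8 (0.87) and Slc4a7 (0.81), and over 11 arrays without control mouse 3 the values were 0.88, 0.67 and 0.29. Against control at day 90, Slc5a1 gave -0.53 ± 0.60 (limma adjusted p = 0.597) and Slc26a3 -0.58 ± 0.77 (limma adjusted p = 0.657). Without control mouse 3 the differences turned to 0.28 and 0.52 and did not pass (limma adjusted p = 0.557 and 0.172), and Slc4a7 turned to 0.40. Slc25a45 passed without it (-0.56, limma adjusted p = 0.021), and in all 22 genes then passed, 9 higher and 13 lower. The share of all probes in that fit is not given here, so this count does not set the solute carriers apart. The promoters of the pair are shown for comparison, from the same RefSeq table.
Slc5a1 (chr5:33103969-33104268, plus strand): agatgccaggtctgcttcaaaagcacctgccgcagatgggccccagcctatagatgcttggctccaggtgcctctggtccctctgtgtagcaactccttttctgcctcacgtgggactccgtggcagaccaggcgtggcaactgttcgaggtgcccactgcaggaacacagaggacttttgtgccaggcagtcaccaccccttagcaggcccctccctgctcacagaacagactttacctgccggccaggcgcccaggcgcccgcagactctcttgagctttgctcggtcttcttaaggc
Slc26a3 (chr12:31437969-31438268, plus strand): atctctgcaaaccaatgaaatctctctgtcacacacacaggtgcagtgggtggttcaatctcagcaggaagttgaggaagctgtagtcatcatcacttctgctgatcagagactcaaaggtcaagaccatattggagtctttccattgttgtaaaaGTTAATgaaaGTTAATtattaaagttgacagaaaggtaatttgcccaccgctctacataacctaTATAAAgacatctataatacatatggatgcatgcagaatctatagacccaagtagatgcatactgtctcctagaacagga
In Slc26a3 the capitals mark TATAAA at -30 from the start, found in 13.6% of all promoters, and GTTAAT, a part of the HNF1 motif, at -94 and -84, found in 7.1%. None of the 5 letter strings searched, TTTATG of the CDX core (11.9% of all promoters) among them, lay in the window of Slc5a1.

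**Figure D5:**
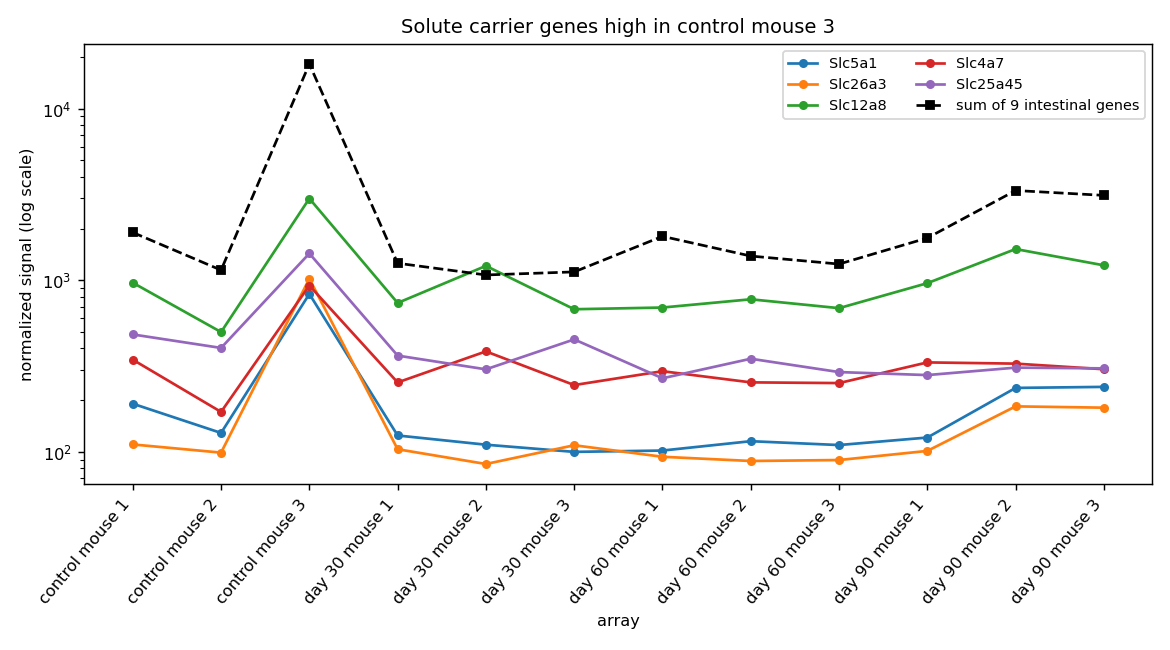
Normalized signal (log axis) of 5 solute carrier genes and the sum of 9 small intestinal genes on the 12 arrays. All 6 lines peak at control mouse 3, where the sum reaches 18200.

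At day 60 against control, 0 of the 53 genes passed, where 0.856% of all probes did (189), 0.847% higher and 0.00906% lower. Before adjustment 11 genes had a p under 0.05 in limma, with 14.5% of all probes, and 8 had one in the methods' t-test, with 12.5% of all probes, of which 0 remained past the threshold once adjusted. More than 2-fold differences were seen for 3 genes and for 1.35% of all probes. The 3 were Slc5a1, Slc26a3 and Slc25a45, each highest in control mouse 3. The smallest p belonged to Slc35c2 (-0.61 ± 0.14, limma adjusted p = 0.0979), Slc30a6, a Golgi zinc transporter (0.45 ± 0.13, limma adjusted p = 0.149), and Slc39a11 (-0.39 ± 0.11, limma adjusted p = 0.155). Slc30a6 gave 406, 366.9 and 337.3 in control and 472.6, 564.8 and 481.7 at day 60, and all 3 genes had no overlap with control. In all, 8 genes lay above and 7 below every control array, against 11.8% and 9.10% of all probes.

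Day 30 differed least from control. No gene passed, nor did any of the 22067 probes (0%). Before adjustment 2 genes had a p under 0.05 in limma, with 4.02% of all probes, and 0 had one in the methods' t-test, with 4.2%. Again 2 genes differed by more than 2-fold, with 1.1% of all probes, and both (Slc5a1 and Slc26a3) were highest in control mouse 3. Slc9a4 (0.49 ± 0.19), Slc5a1 (-1.30 ± 0.57) and Slc25a45 (-0.83 ± 0.42) had the smallest p (each limma adjusted p = 0.999), and without control mouse 3 the last 2 were -0.50 and -0.26.

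Between day 30 and day 60, 0 of 53 genes passed, with 0.358% of all probes (0.353% higher, 0.00453% lower). Before adjustment 16 genes had a p under 0.05 in limma, with 13.1% of all probes, and 15 in the methods' t-test, with 12%, of which 0 passed once adjusted. None differed by more than 2-fold, with 0.612% of all probes. Slc35f5, an orphan of the nucleotide sugar family, was at 175.7, 126.2 and 144.5 at day 30 and 233.2, 231.4 and 228.1 at day 60 (0.65 ± 0.14, limma adjusted p = 0.0901), and it passed without day 30 mouse 1 (0.77, limma adjusted p = 0.0343). Without day 30 mouse 2, Slc4a2 (-0.83, limma adjusted p = 0.0468) and Slc9a3 (1.36, limma adjusted p = 0.0459) passed. Slc9a4 was lower at day 60 in every array (-0.50 ± 0.12, limma adjusted p = 0.114) and Slc18a2 higher, at 315.2, 319.1 and 311.4 against 251, 182.1 and 239.5 (0.51 ± 0.14, limma adjusted p = 0.174).

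From day 60 to day 90, 19 of the 53 genes passed, 10 higher and 9 lower (16 of 50, 7 higher and 9 lower, without the 3 genes that entered through day 90 alone), where 19.8% of all probes passed (9.94% higher, 9.83% lower) and 34.7% of the equally bright probes. Before adjustment 33 genes had a p under 0.05, with 29.7% of all probes, and 4 differed by more than 2-fold, with 4.63%. Both shares include dim probes, and those of equally bright probes are not given for them. Slc4a2 fell by 1.91 ± 0.13 on the log2 scale (limma adjusted p = 1.1e-05), Slc23a3 by 1.62 ± 0.17 (limma adjusted p = 0.000113), Slc5a5 by 1.51 ± 0.20 (limma adjusted p = 0.00049) and Slc9a2 by 1.18 ± 0.13 (limma adjusted p = 0.000155). Smaller falls were those of Slc9a4 (-0.80), Slc25a10 (-0.74), Slc44a2 (-0.64), Slc66a2 (-0.52) and Slc35d1, a transporter of UDP-sugars (-0.45). Slc38a11 (0.99 ± 0.15), Slc4a8 (0.96 ± 0.12) and Slc4a3 (0.94 ± 0.12) rose most, and lower rises were those of Slc8a1 (0.61), Slc25a27 (0.53), Slc11a1 (0.44) and Slc35e2 (0.38). In this comparison, which does not involve the controls, Slc5a1 (0.80 ± 0.22, limma adjusted p = 0.0282), Slc12a8 (0.76 ± 0.16, limma adjusted p = 0.00608) and Slc26a3 (at least 1.5-fold, limma adjusted p = 0.0266) also rose. The calls of Slc12a8 and Slc44a2 were lost in 1 fit of all 4 groups and in the methods' t-test. Slc5a1 and Slc26a3 passed the intensity limit on 2 arrays of day 90 and 0 of day 60, so the signal rule favoured their rise here. Day 90 mouse 1 was the lowest of its group in Slc5a1 (121.1) and Slc26a3 (101.2). Without day 90 mouse 2 or 3, neither passed (Slc5a1 0.65 and 0.64, both genes limma adjusted p from 0.0987 to 0.138). Without 1 of the day 60 mice, Slc5a1 lost the call for each of the 3 (0.76, 0.85 and 0.81) and Slc26a3 for mouse 2 or 3. Slc35d1 and Slc35e2 lost it without any 1 array except day 90 mouse 1 (-0.31 to -0.49 and 0.34 to 0.39), and Slc11a1 without day 60 mouse 1 (0.40) or 3 (0.44). Slc39a11, already at 1399 to 1596 at day 60, missed the threshold here (-0.33 ± 0.11, limma adjusted p = 0.0517).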

How the data were processed

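Total RNA of the antrum of 12 mice was measured on Sentrix Mouse-6 arrays, 1 array for each mouse, and groups were taken from the sample titles. For 46116 probes, intensity values were deposited by the authors both without and with normalization. Their methods name quantile and vsn normalization, and which one made the second table is not given in the sources used here. The non-normalized medians lay between 92.1 and 127.1. The intensities were background corrected (normexp, offset 50), quantile normalized, floored at 32 and put on the log2 scale with limma 3.58.1 in R 4.3.3, and the offset makes folds of dim probes too small. Probes above 100 on at least 3 arrays were tested (22067). Where no array of a group exceeded 100, the group counts as not above background and its fold is computed against 100. Genes were named by reading the zero-padded number in 9832 probe IDs as an NCBI gene number, or a RIKEN clone in 983, against RefSeq GRCm38.p6, which is an inference from the IDs and left 35301 probes unnamed. Each comparison was fitted by itself (lmFit and eBayes, 3 against 3, no covariate) with Benjamini-Hochberg adjustment over all probes tested. Signals are normalized values, and errors are standard errors of limma unless called SD. The script was tested on simulated data. The genes, lists and tests were chosen with earlier results of these data known. Named genes include those past the threshold, up to 2 more for each family with the smallest p and the 6 highest in control signal. They also include the 3 smallest p where none passed, and the 3 profiles most like Slc5a1. Further members are named beside their families. The counts cover all 53 genes, of which 2 are not reported here singly. The number of arrays limits the precision. Alternatives were the background correction and its offset, the scaling, the deposited normalized values, the filter on dim probes, the spread (trended and robust, or shared by all groups in 1 fit), the t-test named in the methods, the mouse number as a block, and each array left out in turn.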

Additional observations from a re-analysis of the deposited data

Results flagged for a closer look

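For 19 genes the change from control differed between day 90 and day 60, as tested by limma's direct comparison of the 2 ages (adjusted p under 0.05), since both changes share the same controls. These are the genes already given from day 60 to day 90, 35.8% of the 53. Of all probes 19.8% passed and of equally bright probes 34.7%, so the count does not set the solute carriers apart. Calls lost under the alternatives are given below. The difference was negative for Slc4a2 (-1.91), Slc23a3 (-1.62), Slc5a5 (-1.51), Slc9a2 (-1.18), Slc9a4 (-0.80), Slc25a10 (-0.74), Slc44a2 (-0.64), Slc66a2 (-0.52) and Slc35d1 (-0.45) on the log2 scale. It was positive for Slc38a11 (0.99), Slc4a8 (0.96), Slc4a3 (0.94), Slc5a1 (0.80), Slc12a8 (0.76), Slc8a1 (0.61), Slc25a27 (0.53), Slc11a1 (0.44) and Slc35e2 (0.38). For Slc26a3, whose day 60 arrays were not above background, day 90 was at least 1.5-fold higher. The signal rule favoured a rise of Slc4a8, Slc38a11 and Slc25a27, which entered through day 90 alone. It also favoured a rise of Slc5a1 and Slc26a3, which passed the intensity limit at day 90 but on no day 60 array.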

How the results depend on the processing

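With the methods' t-test and Benjamini-Hochberg adjustment, 11 genes passed at day 90 against control in place of 17, and 12 from day 60 to day 90 in place of 19. From day 30 to day 60, 1 gene (Slc35f5) passed in 1 fit of all 4 groups. Leaving out 1 array at a time gave 13 to 22 genes at day 90 against control, 14 to 23 from day 60 to day 90 and 0 to 2 from day 30 to day 60 (Slc35f5 without day 30 replicate 1, and Slc4a2 and Slc9a3 without day 30 replicate 2), and 0 in both other comparisons. The shares of all probes in these fits are not given here. No gene that passed changed its direction under the alternatives run, and 9 of the 17 and 6 of the 19 passed under all 16. Slc25a27 and Slc4a8 passed under the 15 that tested them in both comparisons, and the filter at 200 left them untested. At day 90 against control, Slc25a26 and Slc66a2 lost the call under 7 of 16 alternatives each, Slc9a4 under 3, Slc35e2 under 2, and Slc35c2 and Slc4a2 under the t-test alone (adjusted p = 0.0694 and 0.0691). From day 60 to day 90, Slc35d1 lost it under 9, Slc35e2 and Slc5a1 under 8 and Slc26a3 under 7 of the 15 that tested it. Slc12a8 and Slc44a2 each lost it under 2, the 1 fit of all 4 groups and the t-test. The causes were not tested. The mouse numbers are not said to link animals, and deviations of like-numbered mice correlated between -0.43 and 0.36. With the replicate block, 17 genes passed at day 90 against control (16 of them shared, without Slc66a2), 18 from day 60 to day 90 and 0 elsewhere. A filter at 200 left 46 of the genes to test. Over probes past the intensity limit, the mean is the same as the brightest probe, because each gene had 1 such probe. Below the limit 10 of the genes had 13 other probes, of which 5 were tested. A mean that includes those probes was not run. A slide block was not run, as no slide is given in the sources used here.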
